A study of Mus musculus with 27 samples.

Results

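The nucleoplasm of a mouse neuronal progenitor line (mNPC) was compared with that of E14 mouse embryonic stem cells (mESC). These 6 libraries, 3 biological replicates of each cell type, were taken from 27 libraries that also cover cytoplasm, chromatin and primary cortical neurons (mCtx). The mNPC were kept in DMEM/F12 medium with B27 and a daily dose of EGF and FGF at 10 ng/ml. The mESC were kept on gelatin with LIF. Each cell type is 1 line, and the labels do not say how the progenitor line was derived. Soluble nucleoplasmic RNA longer than 200 nt was sequenced after removal of ribosomal RNA, and reads were counted over whole gene spans, so that a gene's count adds its introns to its exons.

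Mouse embryonic stem cells in LIF are held in a self-renewing state by a network of transcription factors around POU5F1, NANOG and SOX2, by LIF signalling through STAT3, and by an epithelial set of adhesion proteins. Neural progenitors grown in EGF and FGF resemble radial glia: SOX, NFI and OLIG factors and Notch signalling through the HES and HEY repressors keep them dividing, and astroglial genes are active in them. Soluble nucleoplasm holds RNA that has left chromatin and has not reached the cytoplasm, together with nuclear noncoding RNA.

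Levels are given in CPM, counts scaled to a standard effective library size, with genes of the mitochondrial chromosome (chrM) set apart before scaling. Total counts ran from 13327489 to 15718994 in mNPC and from 15859984 to 19871198 in mESC, of which chrM took 7.81% to 15.7% in mNPC and 27.9% to 29.8% in mESC. The median gene of a library lay 0.15 to 0.19 log2 units from the mean of the other libraries of its group in mNPC, and 0.20 to 0.38 in mESC. The library furthest from its group was mESC replicate 1.

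Of 18252 genes tested, 14116 differed between mNPC and mESC (77.3%; edgeR quasi-likelihood test, Benjamini-Hochberg adjusted p below 0.05). Of all genes tested, 6376 were higher in mNPC (34.9%) and 7740 were lower (42.4%), and for 13812 genes (75.7%) the libraries of mNPC and mESC did not overlap. With so many genes called, counts of gene list members and statements that libraries did not overlap are to be read against these shares. The counts below are given without a test against them. The split of the DNA methylation genes, for example, lay close to that of all genes. The size of a change says more than its call. Log2 fold changes are mNPC over mESC throughout, and the median over all genes was -0.18. The split of the calls depended on the scale: 5089 were higher and 9081 lower with scaling by total counts (median -0.53), and 1801 were higher and 9800 lower on the authors' TPM as deposited (median -1.06). After the TPM libraries were rescaled by their median ratio, 5636 of 14782 genes were higher (38.1%) and 5743 lower (38.9%), with a median of -0.03. The call of a gene with a small log2 fold change can therefore depend on the scale. Of the single genes called higher below, Acvr2a, Bmpr1a, Ccnd1, Dync1h1, Fgfr1, Msi1, Polrmt, Ptbp2, Rn7sk, Spry2 and Stat3 had a negative log2 fold change on TPM as deposited and a positive one on rescaled TPM. A lower share of a transcript can come from fewer cells that make it or from less of it per cell, and these cannot be told apart in bulk RNA.

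Promoters are shown for 4 genes that recur below: Nanog and Zfp42, which were all but lost from mNPC, and Hes5 and Fabp7, which were all but absent from mESC. Each window runs from 250 bases before to 50 bases after the transcription start site (RefSeq, GRCm38.p6, 5′ to 3′ on the gene's strand). Capitals mark matches, on either strand, to a POU core (TTTGCAT) in Nanog and Zfp42, an RBPJ core (TGGGAA) in Nanog, Hes5 and Fabp7, and an NFI palindrome (TTGGC and GCC, parted by 5 bases) in Fabp7.
Nanog, chr6:122707239-122707538, plus strand: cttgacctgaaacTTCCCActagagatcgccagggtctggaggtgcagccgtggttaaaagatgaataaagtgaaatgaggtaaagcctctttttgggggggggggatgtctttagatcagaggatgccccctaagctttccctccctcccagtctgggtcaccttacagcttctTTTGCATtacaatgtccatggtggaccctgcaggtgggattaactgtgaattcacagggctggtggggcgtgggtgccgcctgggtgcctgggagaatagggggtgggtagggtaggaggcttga
Zfp42, chr8:43306960-43307259, minus strand: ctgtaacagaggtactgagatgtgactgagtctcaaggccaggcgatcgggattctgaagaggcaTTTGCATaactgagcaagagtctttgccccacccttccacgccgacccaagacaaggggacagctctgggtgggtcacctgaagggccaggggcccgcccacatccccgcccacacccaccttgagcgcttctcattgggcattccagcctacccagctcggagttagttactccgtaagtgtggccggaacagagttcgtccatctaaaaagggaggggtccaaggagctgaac
Hes5, chr4:154960673-154960972, plus strand: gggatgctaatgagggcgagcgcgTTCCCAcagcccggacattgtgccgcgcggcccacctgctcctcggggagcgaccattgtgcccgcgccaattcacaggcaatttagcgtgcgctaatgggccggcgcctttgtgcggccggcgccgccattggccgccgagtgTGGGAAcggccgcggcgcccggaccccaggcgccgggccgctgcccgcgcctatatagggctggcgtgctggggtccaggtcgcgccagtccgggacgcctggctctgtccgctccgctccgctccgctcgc
Fabp7, chr10:57784673-57784972, plus strand: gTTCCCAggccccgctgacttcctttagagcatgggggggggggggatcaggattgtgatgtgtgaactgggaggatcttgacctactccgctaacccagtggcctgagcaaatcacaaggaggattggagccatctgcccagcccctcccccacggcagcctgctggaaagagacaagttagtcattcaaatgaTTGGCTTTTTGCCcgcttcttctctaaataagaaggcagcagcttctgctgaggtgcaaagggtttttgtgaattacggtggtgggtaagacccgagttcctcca
The POU core began 75 bases before the start site in Nanog and 185 bases before it in Zfp42. The RBPJ core began 226 and 82 bases before the start site of Hes5, and 249 bases before that of Fabp7, where the NFI palindrome began 55 bases before the start site. Of 32851 RefSeq windows of 300 bases, 4.63% held the POU core, 25.6% the RBPJ core and 1.38% the NFI palindrome. Among 19 windows of stem cell transcription factors, which covered 15 of the 20 genes on that list, 4 held the POU core (21.1%). That count includes overlapping Nanog windows, from 122707239 and from 122707315, which hold the same POU core, so this site was counted more than once. Shares of windows are therefore not shares of genes or of separate sites. Among 24 windows of radial glia genes, which covered 21 of 25 genes, 11 held the RBPJ core (45.8%). Other lists lay nearer to the share of all windows: the POU core was in 1 of 20 windows of stem cell effectors (5%), and the RBPJ core was in 7 of 24 windows of Notch pathway genes (29.2%), 10 of 36 of progenitor transcription factors (27.8%), 6 of 20 of stem cell effectors (30%) and 4 of 19 of stem cell transcription factors (21.1%). The windows of Pou5f1 held no POU core, and that of Egfr held none of the motifs named here. A match to these letters is a description of the sequence and was not tested as a binding site.

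Most transcription factors of the stem cell network were lower in progenitor nucleoplasm, many of them near absent. Of 20 genes listed for this network, all of them tested, 18 fell and none rose. The median log2 fold change was -8.21 (-7.77 with genes that had no count in mNPC set to their lower bound). Pou5f1, the octamer-binding factor at the centre of the network (chromosome 17, 35506037 to 35510776, mm10), had no count in any mNPC library, against 166, 271 and 343 CPM in mESC, at least 1027-fold lower (a bound of 3 counts per library; edgeR adjusted p = 5.82e-12). Nanog, a homeobox factor of the same network, had 0.483, 0.233 and 1.10 CPM in mNPC, against 126, 127 and 172 CPM in mESC (log2 fold change -7.83, SE 0.28). Zfp42, a zinc finger gene widely used as a marker of this state, had no count in mNPC, against 520.4, 452 and 500.2 CPM in mESC, and was at least 1939-fold lower. The nuclear receptor gene Esrrb had 0.193, 0.622 and 0.709 CPM in mNPC, against 391.98, 261 and 248 CPM in mESC. Every mNPC library lay below every mESC library for each of these genes.

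Sox2, which encodes the partner of POU5F1 in stem cells and is also a factor of neural progenitors, had 227, 227 and 264 CPM in mNPC, against 255, 251 and 261 CPM in mESC. The libraries of mNPC and mESC overlapped, and the log2 fold change of -0.10 (SE 0.13) did not pass the test (edgeR adjusted p = 0.513), though with scaling by total counts Sox2 was lower in mNPC (-0.45). Klf4, a Krüppel-like factor that acts downstream of LIF, kept a low level, at 4.73, 4.04 and 7.09 CPM in mNPC against 57.0, 28.0 and 46.9 CPM in mESC, and fell (log2 fold change -3.05). Sall4, a zinc finger factor of the same network, had no count in mNPC, against 186, 237 and 234 CPM in mESC. Besides Sox2, the E-protein gene Tcf3 did not pass the test, at 77.9, 93.9 and 98.7 CPM in mNPC and 67.1, 81.7 and 79.9 CPM in mESC (0.24, edgeR adjusted p = 0.153). The list holds Tcf3 beside Tcf7l1, which has also gone by the name Tcf3 in stem cells. The E-protein gene is therefore not read as a network factor that kept its level. Tcf7l1, a repressor gene downstream of WNT, fell less than most, at 13.9 ± 2.36 CPM in mNPC against 25.4 ± 6.65 CPM in mESC (-0.87), and did not pass on rescaled TPM (-0.06).

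Other genes that mark stem cells followed the transcription factors: of 25, 24 fell and 1 rose (median -11.07, or -8.39 when genes with no count in mNPC are placed at their bound). Tdgf1, the NODAL co-receptor, had 0, 0.0777 and 0.0788 CPM in mNPC, against 969, 817 and 1210.0 CPM in mESC. The RNA-binding gene Lin28a, which blocks maturation of let-7 microRNAs, had 0, 0.233 and 0.158 CPM in mNPC, against 94.8, 192 and 216 CPM in mESC. Dppa5a, an RNA-binding gene of pluripotent cells, Tdh, which encodes the threonine dehydrogenase of mouse stem cells, and L1td1, a gene of retrotransposon origin, had no count in any mNPC library. They were at least 2678-fold, at least 1279-fold and at least 1239.8-fold lower in mNPC. Jam2, which encodes a junctional adhesion molecule, went the other way, at 591 ± 57.8 CPM in mNPC against 176 ± 95.6 CPM in mESC (log2 fold change 1.75). Slc38a4, an amino acid transporter gene, the TGF-beta family inhibitor gene Lefty2, Triml2 and AU018091 completed the 10 largest falls among protein-coding genes with at least 10 CPM in 1 group, and none had a count in mNPC.

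**Figure D1:**
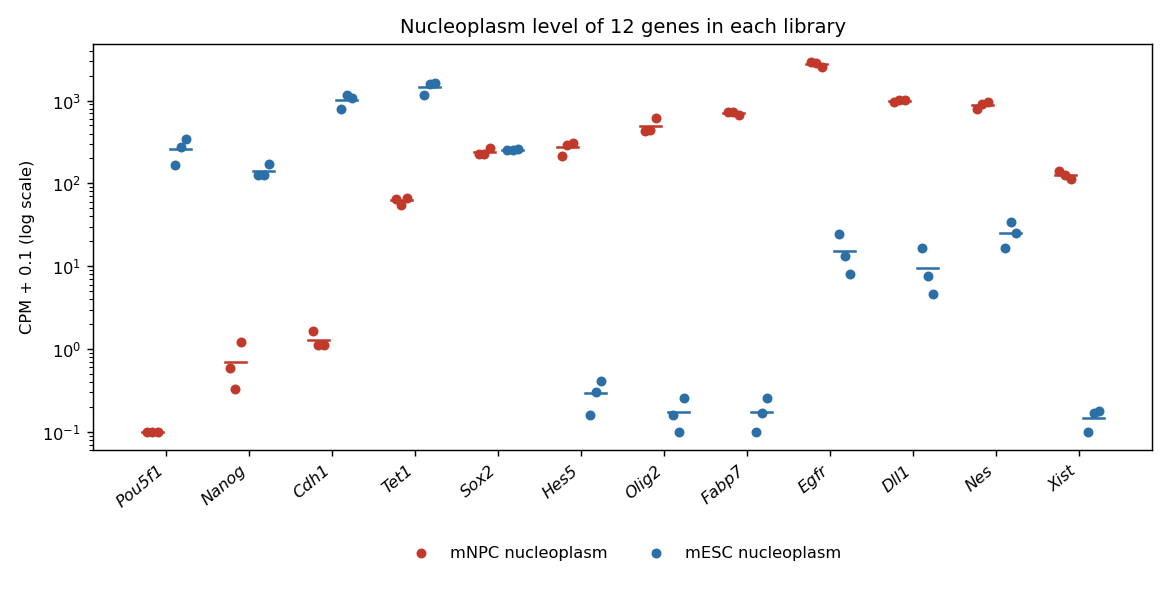
Nucleoplasm level of 12 genes in each library, as CPM + 0.1 on a log scale, with 3 mNPC points left of 3 mESC points and a line at the group mean. Sox2 overlaps between the cell types, while the points of the other 11 genes lie apart.

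The epithelial adhesion genes of mESC fell as a group. All 21 fell in mNPC (median -7.63). Cdh1, which encodes E-cadherin, had 1.55, 1.01 and 1.02 CPM in mNPC, against 795, 1153 and 1066 CPM in mESC (log2 fold change -9.73, SE 0.35). The claudin genes Cldn4 and Cldn6, whose products seal tight junctions, had 0.0263 ± 0.0455 and 0 ± 0 CPM in mNPC, against 142 ± 65.1 and 89.7 ± 9.12 CPM in mESC. Esrp1, a splicing regulator of epithelial cells, had 0, 0 and 0.0788 CPM in mNPC, against 63.8, 55.8 and 48.5 CPM in mESC. Cdh2, which encodes N-cadherin, moved in the opposite direction to Cdh1, at 305, 306 and 252 CPM in mNPC against 7.01, 14.3 and 10.7 CPM in mESC (log2 fold change 4.76). Germline and early embryo genes were near absent from mNPC and mostly low in mESC. All 17 that were tested of 24 fell (median -7.45, or -4.29 with the 10 genes that had no count in 1 group at their bound). The genes with no count in mNPC passed the low-count filter only through other groups, so the filter favoured a count of falls alone. The Tudor domain gene Rnf17 had 0, 0.0777 and 0 CPM in mNPC, against 82.0, 41.1 and 31.5 CPM in mESC. Tex19.1, a gene that restrains retrotransposons, had 0, 0 and 0 CPM in mNPC and 35.7, 35.3 and 48.8 CPM in mESC. The summed level of the 17 genes was 2.03 to 2.29 CPM in mNPC libraries and 145 to 225 CPM in mESC libraries.

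Most transcription factors of neural progenitors were higher in mNPC. Of 37 tested, 33 rose and 2 fell (median 5.37). Olig2, a helix-loop-helix factor of ventral progenitors and of the oligodendrocyte lineage (chromosome 16, 91225550 to 91228677), had 429.8, 440.3 and 615 CPM in mNPC, against 0.0610, 0 and 0.154 CPM in mESC, a count ratio of 7286 (95% interval 2493 to 35331). Sox9, a factor needed for the switch from neurons to glia, had 68.3, 53.3 and 63.4 CPM in mNPC, against 0, 0 and 0.0770 CPM in mESC. The mESC libraries held almost no RNA of these factors, and the groups did not overlap.

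Nfia, which encodes a nuclear factor of the gliogenic switch, had 209, 146 and 148 CPM in mNPC, against 3.23, 2.78 and 1.92 CPM in mESC (log2 fold change 5.96, SE 0.20). Pax6, a paired box factor of dorsal progenitors, rose less, at 41.6, 39.4 and 42.2 CPM in mNPC against 2.99, 4.74 and 3.93 CPM in mESC (log2 fold change 3.41). The POU factor genes Pou3f2, Pou3f3 and Pou3f4 rose, and their relative Pou3f1 fell, at 1.59 ± 0.950 CPM in mNPC against 5.93 ± 1.62 CPM in mESC (log2 fold change -1.87). Id1, an inhibitor of helix-loop-helix factors, fell (log2 fold change -1.47), while Id2, Id3 and Id4 rose.

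Radial glia and neural stem cell effector genes rose almost without exception, 24 of 25 (median 7.50). Their summed level was 39292 to 47981 CPM in mNPC libraries and 336 to 387 CPM in mESC libraries. Fabp7, the brain fatty acid-binding protein gene of radial glia, had 727, 729.7 and 662 CPM in mNPC, against 0, 0.0677 and 0.154 CPM in mESC, a count ratio of 10395 (95% interval 3557 to 50405). Ednrb, the endothelin receptor B gene, had 6698, 4938 and 3939.8 CPM in mNPC, against 0.427, 0.271 and 0.231 CPM in mESC. Slc1a3, which encodes the glial glutamate transporter GLAST, had 4458, 4281 and 3599.9 CPM in mNPC, against 44.0, 55.8 and 53.3 CPM in mESC (log2 fold change 6.33). Each of these genes stood apart between the groups.

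Nes, the nestin gene of neural stem cells, had 786, 904 and 956 CPM in mNPC and 16.5, 34.3 and 25.2 CPM in mESC (log2 fold change 5.12). Ncan, which encodes the matrix proteoglycan neurocan, was 1 of the 3 genes that gained most CPM in mNPC, at 7178, 7833 and 7073 CPM in mNPC against 25.7, 48.0 and 32.3 CPM in mESC. Msi1, an RNA-binding gene of neural stem cells, rose by only 1.28. Prom1, whose product CD133 marks several kinds of stem cell, did not pass the test (28.5 ± 4.85 CPM in mNPC and 30.6 ± 20.1 CPM in mESC, edgeR adjusted p = 0.756). Among all protein-coding genes with at least 10 CPM in 1 group, the 10 largest rises were Tnr, Gpr17, Sparcl1, Ednrb, Agt, Omg, Fabp7, Lrrc4b, Pcdhb21 and Pcdh10. Tnr, which encodes the matrix glycoprotein tenascin-R, had 409, 352 and 297 CPM in mNPC and no count in mESC, and was at least 1715-fold higher.

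Notch pathway genes rose more often than they fell, 14 against 5 of 23 (median 2.10). Among the ligands, Dll1 had 952, 1028 and 1022 CPM in mNPC, against 16.6, 7.45 and 4.54 CPM in mESC (log2 fold change 6.69, SE 0.45), while Jag2 fell to 1.89 ± 0.465 CPM in mNPC, against 79.5 ± 26.2 CPM in mESC (-5.37). Among the receptors, Notch1 had 2276, 2838 and 2467 CPM in mNPC, against 169, 151 and 92.6 CPM in mESC (4.20), Notch2 and Notch3 also rose, and Notch4 fell (-4.27). Among the target genes, Hes5, a repressor of neuron formation, had 217, 293 and 307 CPM in mNPC, against 0.0610, 0.203 and 0.308 CPM in mESC, a log2 fold change of 10.48.

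Hes1, the other main repressor gene downstream of Notch, did not pass the test, at 10.3, 11.4 and 14.97 CPM in mNPC and 13.1, 6.50 and 8.24 CPM in mESC (log2 fold change 0.40, edgeR adjusted p = 0.268). Rbpj, which encodes the DNA-binding partner of the Notch intracellular domain, fell, at 43.3, 40.3 and 40.7 CPM in mNPC against 172, 183 and 199 CPM in mESC (-2.16). Of its co-activator genes, Maml2 rose (5.41) and Maml3 fell (-2.72).

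Markers of brain regions did not move together: of 40 listed, 22 were tested, 10 rose and 8 fell. The ventral forebrain homeobox gene Gsx2 and the dorsal one Emx2 both rose. Gbx2, a hindbrain factor that is also part of the LIF response in stem cells, fell to 1.21 ± 0.171 CPM in mNPC, against 25.7 ± 16.4 CPM in mESC. The median of the list was 1.64 on trimmed-mean scaling and -1.21 on TPM as deposited, and 0.63 without mNPC replicate 2, so it carries no direction.

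Markers of other cell types bear on what the progenitor culture held. Neuron markers were mixed, with 5 of 20 higher and 9 lower. Dcx and Map2, cytoskeletal genes of young neurons, had 7.08 ± 1.33 and 657 ± 80.4 CPM in mNPC, against 0 ± 0 and 18.3 ± 4.35 CPM in mESC. Stmn2 and Tubb3, also cytoskeletal genes of young neurons, fell to 0.0259 ± 0.0449 and 23.5 ± 2.86 CPM in mNPC, against 93.6 ± 25.1 and 51.0 ± 15.3 CPM in mESC. Rbfox3, the gene of the neuronal antigen NeuN, was lower in mNPC, at 1.14 ± 0.0649 CPM against 2.94 ± 1.31 CPM in mESC, and the summed level of the 20 genes was 696 to 847 CPM in mNPC libraries and 204 to 229 CPM in mESC libraries, with most of the mNPC sum from Map2. Oligodendrocyte lineage genes were higher for 7 of 9 tested and lower for 2 (median 4.03). Gpr17, a receptor of immature oligodendrocytes, had 259, 261 and 195 CPM in mNPC and no count in mESC. Cspg4, the NG2 proteoglycan gene of oligodendrocyte precursors, had 973, 1476 and 1283 CPM in mNPC, against 3.48, 2.17 and 0.462 CPM in mESC (log2 fold change 9.20). Mobp and Myrf, genes of myelinating cells, were lower in mNPC, at 0 ± 0 and 4.72 ± 0.8996 CPM against 3.01 ± 1.18 and 73.4 ± 32.1 CPM in mESC. What share of these values comes from cells that had begun to differentiate was not tested.

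Endoderm and mesoderm markers were low in both lines, at a summed 0.773 to 1.89 CPM in mNPC and 16.1 to 19.6 CPM in mESC over 8 genes, of which 6 fell and none rose. Microglia and endothelium markers summed to 18.3 to 26.4 CPM in mNPC and 203 to 443 CPM in mESC over 10 genes, of which 6 fell and none rose. Most of the mESC sum was Pecam1, an adhesion gene of endothelium and of mouse stem cells, at 0.337 ± 0.160 CPM in mNPC against 266 ± 127 CPM in mESC. In both of these lists, genes with no count in mNPC passed the low-count filter only through other groups, which favoured a count of falls alone. Of 9 fibroblast markers, 3 rose and 5 fell. Their summed level was higher in mNPC, at 212 to 249 CPM in mNPC libraries and 47.9 to 97.3 CPM in mESC libraries. The rises were Fbln1, at 171 CPM in mNPC against 40.3 CPM in mESC, Thy1, at 24.5 against 8.79 CPM, and the homeobox gene Prrx1, at 28.0 ± 4.89 CPM in mNPC against 0.0920 ± 0.0812 CPM in mESC. The collagen genes Col1a1, Col1a2 and Col3a1 were low in both lines and fell.

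Receptors that read the growth factors in the medium differed between the cell types, some by a wide margin. Egfr, the receptor of EGF, had 2883, 2847 and 2540.4 CPM in mNPC, against 24.2, 13.1 and 7.93 CPM in mESC (log2 fold change 7.50, SE 0.32, edgeR adjusted p = 3.22e-17). Erbb4, a related receptor for neuregulins, had 265 ± 46.6 CPM in mNPC, against 0.505 ± 0.214 CPM in mESC, and Erbb3, another of that family, fell. Of the FGF receptors, Fgfr3 rose, at 912 ± 189 CPM in mNPC against 7.88 ± 1.68 CPM in mESC (6.85), Fgfr1 rose slightly (0.81) and Fgfr4 fell. Fgfr2 stayed high in both, at 614, 601 and 604 CPM in mNPC against 651, 811 and 769.6 CPM in mESC (-0.29, edgeR adjusted p = 0.0481). It no longer passed without any 1 of the mNPC libraries or without mESC replicate 2 or 3 (-0.30 to -0.23) and under the replicate block (-0.29), and its sign turned on rescaled TPM (2.43). Fgf4, the FGF that stem cells make for themselves, had 0, 0 and 0 CPM in mNPC, against 226, 137 and 174 CPM in mESC. The feedback inhibitor genes Dusp4 and Spry4 fell and Spry2 rose, and over the 22 genes 6 rose and 12 fell (median -1.01).

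Genes of the LIF, BMP and NODAL pathways were mixed, with 10 of 22 higher and 11 lower. The secreted ligands and inhibitors Nodal, Lefty1, Lefty2 and Bmp4 fell, Bmp4 to 0 ± 0 CPM in mNPC against 78.6 ± 36.1 CPM in mESC. Socs3, a feedback inhibitor of LIF signalling, and the inhibitory SMAD genes Smad6 and Smad7 also fell. Stat3, which carries the LIF signal, rose, at 200.0, 209 and 236 CPM in mNPC against 91.2, 79.8 and 86.4 CPM in mESC (log2 fold change 1.32). The BMP receptor genes Bmpr1a, Bmpr1b and Bmpr2 rose, Bmpr1b by a log2 fold change of 4.86, and so did the activin receptor gene Acvr2a (1.12), while its paralog Acvr2b fell (-0.96). The LIF receptor gene Lifr did not pass the test (0.25, edgeR adjusted p = 0.140), and passed at 0.55 without mESC replicate 1.

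**Figure D2:**
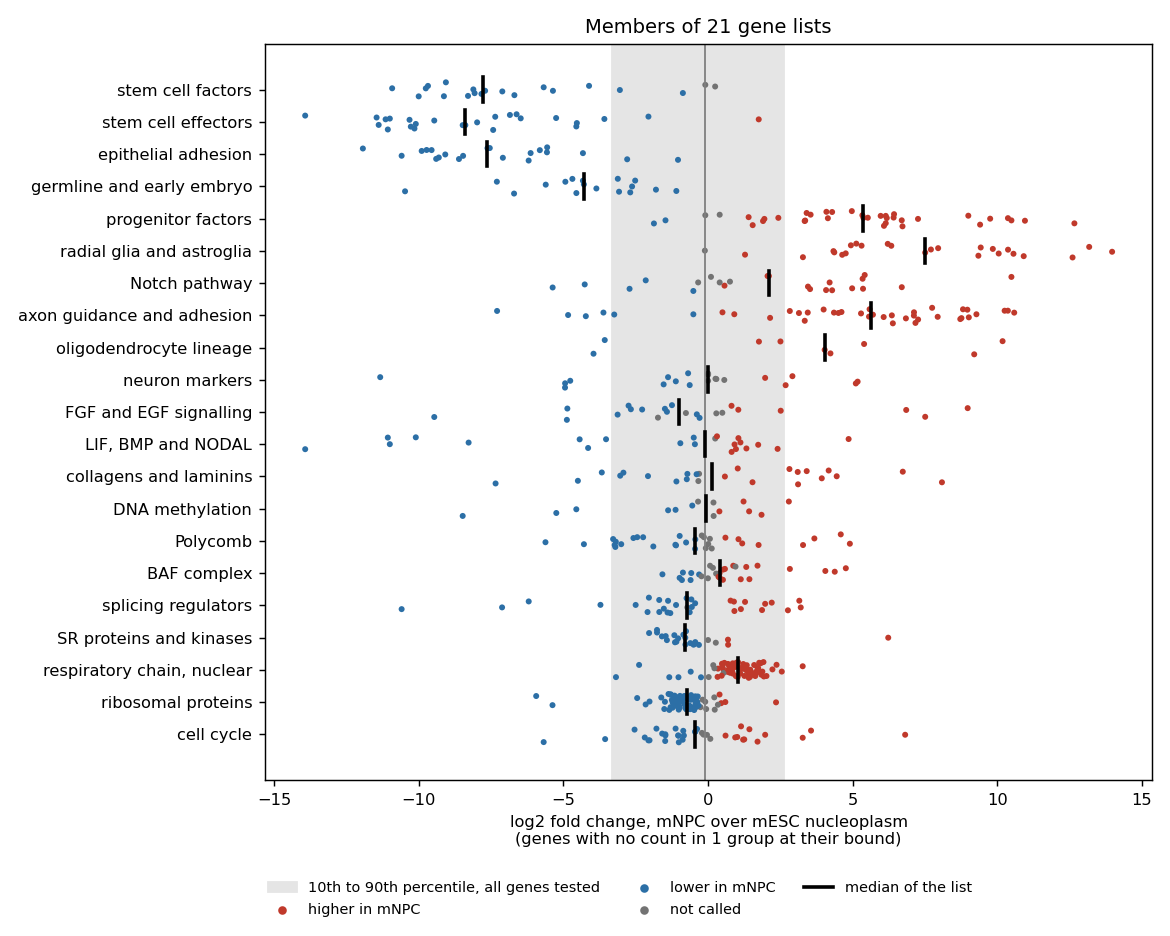
Log2 fold change, mNPC over mESC in nucleoplasm, of each tested member of 21 gene lists, with the list's median as a bar and the 10th to 90th percentile of all genes tested in grey. Genes with no count in 1 group are drawn at their bound. The stem cell, epithelial and germline lists lie to the left, and the progenitor, radial glia and axon adhesion lists to the right.

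Genes of axon guidance and neural adhesion, many of which are very long, rose for 34 of 40 and fell for 6 (median 5.64). Lsamp and Cntn1, immunoglobulin adhesion genes, had 368 ± 42.6 and 801 ± 142 CPM in mNPC, against 0.269 ± 0.0370 and 0.612 ± 0.685 CPM in mESC. Epha5, an ephrin receptor gene, had 369, 314 and 293 CPM in mNPC, against 0.183, 0.271 and 0.154 CPM in mESC. Slit3, a repulsive guidance gene, went the other way (0.193, 0.155 and 0.158 CPM in mNPC and 36.4, 28.7 and 17.4 CPM in mESC), as did Cntn2, Cntnap2, L1cam and Efna5. Collagen and laminin genes exchanged members, with 12 of 24 higher and 10 lower, and the sign of their median depended on the scaling (0.13, or -0.22 with total counts and 0.40 without mESC replicate 1). Col4a5 and Col5a2 rose, at 464 ± 75.6 and 784 ± 32.0 CPM in mNPC against 1.62 ± 1.93 and 7.34 ± 1.79 CPM in mESC. Lama1, a laminin chain of the early embryo's basement membrane, fell to 3.48, 4.59 and 2.60 CPM in mNPC, against 889, 402 and 451 CPM in mESC, and the fibronectin gene Fn1 fell (-4.50).

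Enzymes of DNA methylation changed member by member (5 of 14 higher, 6 lower). The de novo methyltransferase gene Dnmt3b had 3.86, 4.20 and 4.33 CPM in mNPC, against 81.9, 204 and 188 CPM in mESC (log2 fold change -5.25), and its cofactor gene Dnmt3l had 0, 0 and 0 CPM in mNPC, against 88.6, 90.5 and 92.7 CPM in mESC. Dnmt3a, the other de novo enzyme gene, did not pass the test (0.19, against -0.70 on rescaled TPM, where it passed). Of the TET dioxygenases, which oxidise methylcytosine, Tet1 fell to 65.3, 54.5 and 66.5 CPM in mNPC, against 1159, 1576 and 1645 CPM in mESC (-4.56), and Tet3 rose, at 91.2, 86.5 and 93.6 CPM in mNPC against 16.8, 13.3 and 8.93 CPM in mESC (2.79).

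Polycomb genes fell in 17 of 31 and rose in 8 (median -0.45). The change followed the paralog: of the CBX readers, Cbx7 fell (-4.29) and Cbx8 rose (4.90). Of the PCGF subunits, Pcgf2 and Pcgf6 fell (-3.23 and -2.45) and Bmi1 rose, at 61.8, 54.3 and 64.0 CPM in mNPC against 5.61, 3.45 and 5.00 CPM in mESC (3.67). Epop, a stem cell partner of the repressive complex that methylates histone H3, had 2.03, 2.57 and 3.63 CPM in mNPC and 96.5, 122 and 192 CPM in mESC. Genes of the BAF chromatin remodelling complex rose in 15 of 28 and fell in 7 (median 0.40, or -0.73 on TPM as deposited). Smarca2, Smarcd3 and Dpf3, whose products are found in neural forms of the complex, rose by log2 fold changes of 4.76, 4.05 and 4.38. The ATPase gene Smarca2 had 61.9, 56.2 and 62.3 CPM in mNPC, against 2.93, 1.35 and 2.31 CPM in mESC, and Smarcd2, a paralog of Smarcd3, fell (-1.58). Other subunit genes of the neural forms did not pass the test, Actl6b at 0.95 (past it at 1.25 without mNPC replicate 1 and at 1.30 without mNPC replicate 3), Dpf1 at 0.28 and Ss18l1 at 0.17 (edgeR adjusted p = 0.116, 0.427 and 0.344), and Actl6a, Phf10 and Ss18, subunit genes of the progenitor form, fell (-0.87, -0.98 and -0.58).

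Regulators of alternative splicing fell in 19 of 31 genes and rose in 11. The polypyrimidine tract-binding gene Ptbp1 had 75.8, 90.6 and 95.7 CPM in mNPC, against 203, 323 and 319 CPM in mESC (log2 fold change -1.69), and its neural paralog Ptbp2 had 98.1, 85.6 and 89.0 CPM in mNPC, against 57.4, 58.9 and 42.7 CPM in mESC (0.78). The neural regulators Nova1, Nova2 and Celf2 rose (3.20, 2.76 and 3.15). The epithelial regulators Esrp1 and Esrp2 and the muscleblind gene Mbnl3 fell, and so did Celf4 (-3.72), a regulator of neurons. A list of SR splicing factors and the kinases that phosphorylate them, which also holds Ogt, fell in 19 of 24 genes and rose in 3 (median -0.79). Ogt, which is neither, is among those that fell (-0.32). Srsf2 and Srsf7 fell (log2 fold changes -1.77 and -1.60), and the kinase gene Srpk3 rose, at 7.36 ± 1.03 CPM in mNPC against 0.0836 ± 0.0925 CPM in mESC.

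Long noncoding RNAs that are held in the nucleus included some of the clearest differences. Xist, which coats the inactive X chromosome, had 142, 125 and 114 CPM in mNPC, against 0, 0.0677 and 0.0770 CPM in mESC, a count ratio of 2803 (95% interval 776 to 23145). The Y-linked gene Kdm5d, a histone demethylase gene, rose to 20.1, 18.2 and 21.4 CPM in mNPC, against 3.35, 2.24 and 0.924 CPM in mESC, while 5 of the 6 Y-linked genes tested fell. Ddx3y had 15.9, 13.7 and 18.3 CPM in mNPC and 83.7, 92.3 and 113 CPM in mESC. The mNPC libraries therefore held Xist and Y-linked RNA at once, and whether these came from the same cells was not tested.

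Pantr1, a long noncoding RNA beside Pou3f3, rose to 103, 93.6 and 87.4 CPM in mNPC, against 0.0610, 0 and 0 CPM in mESC, and 9630028B13Rik and C130071C03Rik also rose. C130071C03Rik overlaps the microRNA gene Mir9-2. Meg3, a maternally expressed imprinted RNA, fell to 0.0966, 0.233 and 0 CPM in mNPC, against 96.5, 121 and 94.6 CPM in mESC. Lncenc1, a noncoding RNA of naive stem cells, had 0.386, 0.155 and 0.0788 CPM in mNPC and 464, 429 and 402 CPM in mESC, and the largest falls among noncoding genes included Platr16, Platr21 and Platr28, which are named for their association with pluripotency. Neat1, the scaffold of paraspeckles, fell to 9.18, 9.95 and 5.83 CPM in mNPC, against 204, 88.5 and 65.6 CPM in mESC (-3.84).

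Malat1, an RNA of nuclear speckles, did not pass the test, at 8655, 6586 and 8456 CPM in mNPC and 10827, 5030.2 and 4087 CPM in mESC (log2 fold change 0.25, edgeR adjusted p = 0.384), with mESC replicate 1 far above the other mESC libraries. Without that library the log2 fold change of Malat1 was 0.80 and passed. Of 20 long noncoding RNAs tested of 39 listed, 4 rose and 10 fell (median -0.71). Snhg3, 1 of the 4, overlaps Rcc1 on the same strand, and the sign of both turned on rescaled TPM (-2.56 and -1.57), so their counts are uncertain. Among imprinted genes, 6 of 26 rose and 15 fell. Nnat, a proteolipid gene of the developing brain, had 753 ± 103 CPM in mNPC, against 8.55 ± 2.11 CPM in mESC (6.47), and Zdbf2 had 0.207 ± 0.160 CPM in mNPC, against 282 ± 120.0 CPM in mESC.

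Nuclear genes of the respiratory chain rose together, 70 of 80 against 6 that fell, with a median log2 fold change of 1.03. The median was -0.30 on TPM as deposited, where the median of all genes was -1.06. Sdha, a subunit gene of complex II, had 1147 ± 38.2 CPM in mNPC, against 196 ± 20.7 CPM in mESC. Glycolysis genes fell in 12 of 19 and rose in 5, along paralog lines: the hexokinase gene Hk2 fell (-4.23) and Hk1 rose (2.45), the phosphofructokinase gene Pfkp fell (-4.39) and Pfkm rose (2.20), and the aldolase gene Aldoc rose (4.64). The glucose transporter gene Slc2a3 had 38.5, 39.6 and 31.4 CPM in mNPC, against 2143, 1678 and 1863 CPM in mESC. Of 19 genes of one-carbon and serine metabolism 11 fell, Shmt1 among them (-3.79), and 6 rose, including Aldh1l1, a folate enzyme gene of astrocytes, at 73.3 ± 6.54 CPM in mNPC against 6.18 ± 3.34 CPM in mESC.

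Cell cycle genes fell in 21 of 37 and rose in 12 (median -0.45). The D cyclins rose in part: Ccnd2 had 107, 125 and 132 CPM in mNPC, against 2.62, 11.9 and 16.9 CPM in mESC (3.56), and Ccnd1 had 84.0, 113 and 134 CPM in mNPC, against 22.0, 61.0 and 68.2 CPM in mESC (1.14), while Ccnd3 fell (-1.48). Ccne1, the cyclin of entry into S phase, fell to 12.5, 16.9 and 14.03 CPM in mNPC, against 88.4, 179 and 247 CPM in mESC (-3.56), and the replication licensing genes Mcm2, Mcm3, Mcm4, Mcm5, Mcm6 and Mcm7 fell. Other genes of dividing cells differed in direction. Mki67 rose, at 1347 CPM in mNPC against 704 CPM in mESC (0.94), and so did Cdk4 (1.43) and Ccna2 (0.60), while Top2a fell (-0.86). Cdk1 did not pass the test (-0.04, edgeR adjusted p = 0.774). The CDK inhibitor genes Cdkn1b and Cdkn2c rose, Cdkn2c to 82.4 ± 6.88 CPM in mNPC against 0.729 ± 0.0515 CPM in mESC. Mycn, the MYC family gene of stem cells and of early neural tissue, fell (-5.68). Interferon and antigen presentation genes were even, with 9 of 20 higher and 9 lower. The peptide transporter genes Tap1 and Tap2 and the light chain gene B2m rose, and the interferon-induced membrane genes Ifitm1, Ifitm2 and Ifitm3 fell, Ifitm1 to 0.0525 ± 0.0910 CPM in mNPC against 68.4 ± 28.6 CPM in mESC.

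The largest gain and the largest loss of CPM were those of structured RNAs. Rn7sk, the 7SK RNA that restrains the elongation factor P-TEFb, gained most CPM, at 25058, 37925 and 19626 CPM in mNPC against 17403, 12161 and 10415 CPM in mESC (1.05). Rmrp, the RNA of the RNase that processes ribosomal RNA, lost most, at 10883, 17351 and 10619 CPM in mNPC against 33974, 19275 and 14883 CPM in mESC (-0.81), though without mESC replicate 1 it was at -0.40 and did not pass. The nucleolar gene Npm1 and the chaperone gene Hsp90aa1 came next among the losses (-3.62 and -3.18). Replication-dependent histone genes, whose near-identical copies make single members uncertain, fell in 32 of 57 and rose in 7 (median -0.63). Counts over snoRNA genes fell in 190 of 309 and rose in 45, with a median of -1.62 that became 0.25 on rescaled TPM. The libraries were made from RNA above a minimum length, and counts covered whole gene spans. What share of the snoRNA counts came from mature snoRNA or from RNA of host genes was not tested.

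The composition of the mitochondrial RNA counts differed between the cell types. The chrM share of all counts was 11.1% ± 4.14 in mNPC and 29.1% ± 1.03 in mESC (SD, n = 3 each; exact two-sided permutation p = 0.1, the smallest that 3 against 3 can give). Mitochondrial ribosomal RNA accounted for 5.33% ± 2.88 of counts in mNPC and 27.2% ± 1.05 in mESC. The messenger RNA genes of chrM went the other way, at 6.58% ± 1.59 of protein-coding counts in mNPC and 2.78% ± 0.0992 in mESC (exact permutation p = 0.1). Per CPM of counts outside chrM, mt-Co1 and mt-Cytb were 3.48 and 4.26 times as high in mNPC as in mESC, mt-Nd2 was 1.08 times as high, and the ribosomal RNAs mt-Rnr1 and mt-Rnr2 stood at 0.154 and 0.209 of their mESC level. The source of mitochondrial RNA in the nucleoplasm libraries was not tested. The libraries were made after removal of ribosomal RNA. How much mt-Rnr1 and mt-Rnr2 that step left in each library was not tested, so it cannot be told apart from a difference between the cells.

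The change in nucleoplasm was set against the change in cytoplasm and on chromatin of the same cell types by a test of the difference. By themselves, 76.0% of genes differed between mNPC and mESC in cytoplasm (37.1% higher and 38.9% lower) and 76.6% on chromatin (34.0% higher and 42.5% lower). The change in nucleoplasm differed from the change in cytoplasm for 4439 genes (24.3%), 1837 more positive in nucleoplasm (10.1%) and 2602 more negative (14.3%). It differed from the change on chromatin for 5495 genes (30.1%), 3061 more positive (16.8%) and 2434 more negative (13.3%). The fit did not pair fractions by replicate number, though same-numbered fractions of mESC deviated together. With a term for each cell type and replicate number, the splits were 2591 and 3481 against cytoplasm, and 3988 and 3106 against chromatin. These splits moved with the scaling. Against cytoplasm they were 656 and 5202 with total counts, 2490 and 1937 with median-ratio size factors, 923 and 3416 on TPM, 4029 and 2052 on rescaled TPM, and 165 and 252 when a log2 difference of at least 1 was required. Against chromatin they were 2579 and 2872, 3427 and 2120, and 1548 and 2263 in the first 3 of these, and 470 and 175 with the requirement. The median difference over all genes was -0.12 against cytoplasm and 0.07 against chromatin.

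Ribosomal protein genes fell in nucleoplasm, 71 of 82 against 4 that rose, with a median log2 fold change of -0.75. In cytoplasm their median was -0.05 and on chromatin it was -1.41, so the nucleoplasm lay between them. For 59 of 82 genes the change in nucleoplasm was more negative than in cytoplasm and for none was it more positive, and for 53 it was more positive than on chromatin and for none more negative. Rpl29 was the main exception, at 147, 159.8 and 138 CPM in mNPC against 25.7, 27.1 and 34.6 CPM in mESC (2.35). Genes of translocation into the endoplasmic reticulum and folding there rose in cytoplasm (median 1.09) and were even in nucleoplasm, with 12 of 32 higher and 7 lower (median 0.11, or -0.25 with total counts). For 24 of the 32 the change in nucleoplasm was the more negative. Spcs3, a signal peptidase subunit gene, had a log2 fold change of -2.16 in nucleoplasm and -0.02 in cytoplasm (difference -2.14, SE 0.15).

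SR proteins and their kinases, listed together with Ogt, fell in nucleoplasm (median -0.79) but had a positive median on chromatin (0.33). For 21 of the 24 genes the change in nucleoplasm was the more negative of these. Clk1, a kinase of SR proteins whose transcripts are often held in the nucleus with introns, was slightly lower in nucleoplasm, at 87.9 ± 8.80 CPM in mNPC against 125 ± 23.1 CPM in mESC (-0.50), and rose on chromatin, at 362 ± 10.9 CPM in mNPC against 148 ± 19.4 CPM in mESC (1.30). Radial glia genes showed the opposite, with a more positive change in nucleoplasm than on chromatin for 16 of 25 and a more negative one for 1. Slc1a3 had log2 fold changes of 6.33 in nucleoplasm and 3.26 on chromatin (difference 3.08, SE 0.31), where mNPC had 733 ± 47.4 CPM and mESC 76.8 ± 29.7 CPM. Collagen and laminin genes were more positive in nucleoplasm than on chromatin for 19 of 24, and nuclear respiratory chain genes for 45 of 80, and no gene of either list was more negative.

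**Figure D3:**
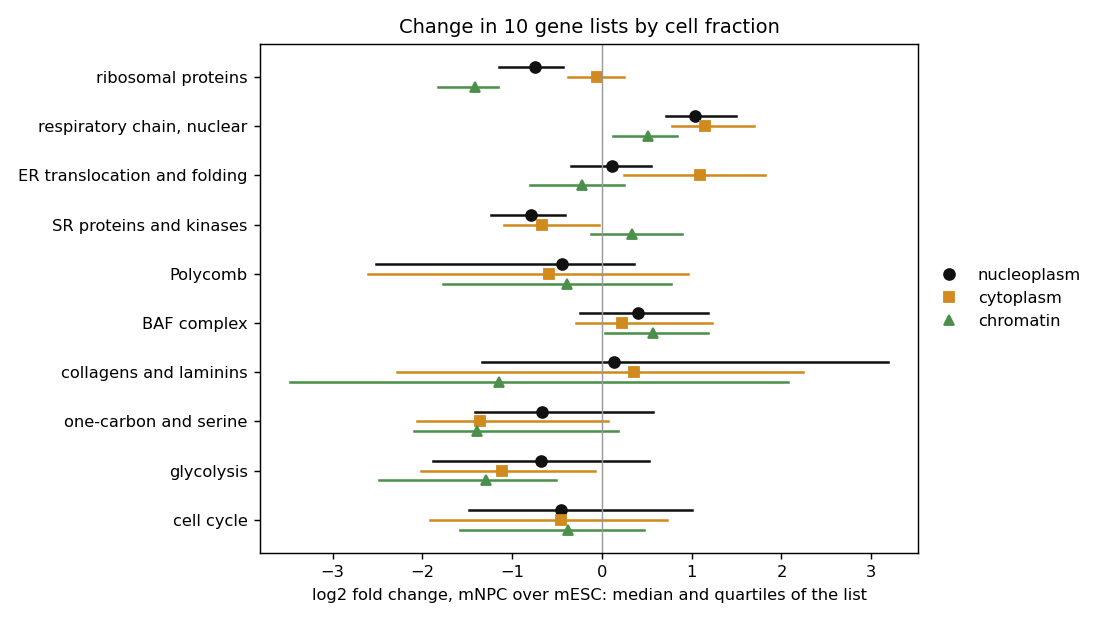
Median (points) and quartiles (lines) of the log2 fold change, mNPC over mESC, over the tested members of 10 gene lists in nucleoplasm, cytoplasm and chromatin. The nucleoplasm median of the ribosomal protein genes (-0.75) lies between those of cytoplasm (-0.05) and chromatin (-1.41), and that of the SR proteins and kinases (-0.79) lies below that of chromatin (0.33).

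Single genes departed further. Of the 16 genes with the 4 most positive and 4 most negative differences against each fraction, 15 had a group mean under 1 CPM in 1 of the 4 groups, so their size rests on few counts. Among genes with at least 1 CPM in all 4 groups, a rule chosen after seeing the data, Kif1a and Pcx had 2 of the largest excesses of nucleoplasm over cytoplasm. Pcx, which encodes the mitochondrial enzyme pyruvate carboxylase, had 1263 ± 145 CPM in mNPC nucleoplasm against 32.6 ± 5.75 CPM in mESC nucleoplasm, and 100.5 ± 4.83 CPM in mNPC cytoplasm against 30.03 ± 3.57 CPM in mESC cytoplasm (difference 3.53, SE 0.22, edgeR adjusted p = 2.48e-11). Kif1a, a kinesin motor gene of axonal transport, had 808 ± 30.05 CPM in mNPC nucleoplasm against 21.3 ± 13.9 CPM in mESC nucleoplasm, and 82.7 ± 11.5 CPM in mNPC cytoplasm against 26.3 ± 17.7 CPM in mESC cytoplasm (difference 3.59, SE 0.60). Both genes rose in cytoplasm as well, by 1.74 and 1.65. Against chromatin, Sorcs2 and Olfm2 had the largest excess in nucleoplasm (4.46 and 4.34), and the large genes Lrp1b, Kcnk2 and Il1rapl1 rose more on chromatin (-3.68, -3.73 and -4.08), with Kcnk2 at 0.56 on rescaled TPM, where it did not pass. Lrp1b, a lipoprotein receptor gene, had 365 ± 38.8 CPM in mNPC chromatin against 3.57 ± 0.854 CPM in mESC chromatin, and 28.8 ± 5.34 CPM in mNPC nucleoplasm against 3.65 ± 1.28 CPM in mESC nucleoplasm.

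For 426 genes the nucleoplasm and the cytoplasm moved in opposite directions with all 3 tests passed, and for 522 genes the nucleoplasm and chromatin did. Dync1h1, the heavy chain gene of the dynein motor, rose in nucleoplasm, at 2031 ± 191 CPM in mNPC against 1117 ± 207 CPM in mESC (0.86), and fell in cytoplasm, at 165 ± 42.6 CPM in mNPC against 748 ± 399.7 CPM in mESC (-2.18). The mitochondrial genes Polrmt, the RNA polymerase, and Aars2, the alanyl-tRNA synthetase, also rose in nucleoplasm (1.02 and 1.43) and fell in cytoplasm (-1.69 and -1.30). Gas5, a noncoding host gene of snoRNAs, rose in cytoplasm, at 199 ± 17.5 CPM in mNPC against 40.8 ± 7.13 CPM in mESC (2.28), and was slightly lower in nucleoplasm, at 114 ± 2.50 CPM in mNPC against 137 ± 2.25 CPM in mESC (-0.26). That fall in nucleoplasm no longer passed without mESC replicate 1 or 3 or without any 1 of the mNPC libraries (-0.26 to -0.24), while the difference between the fractions of -2.54 (SE 0.15) passed each time. Against chromatin, Ogt, which encodes the enzyme that adds N-acetylglucosamine to nuclear proteins, was slightly lower in nucleoplasm (-0.32) and rose on chromatin (0.85).

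**Figure D4:**
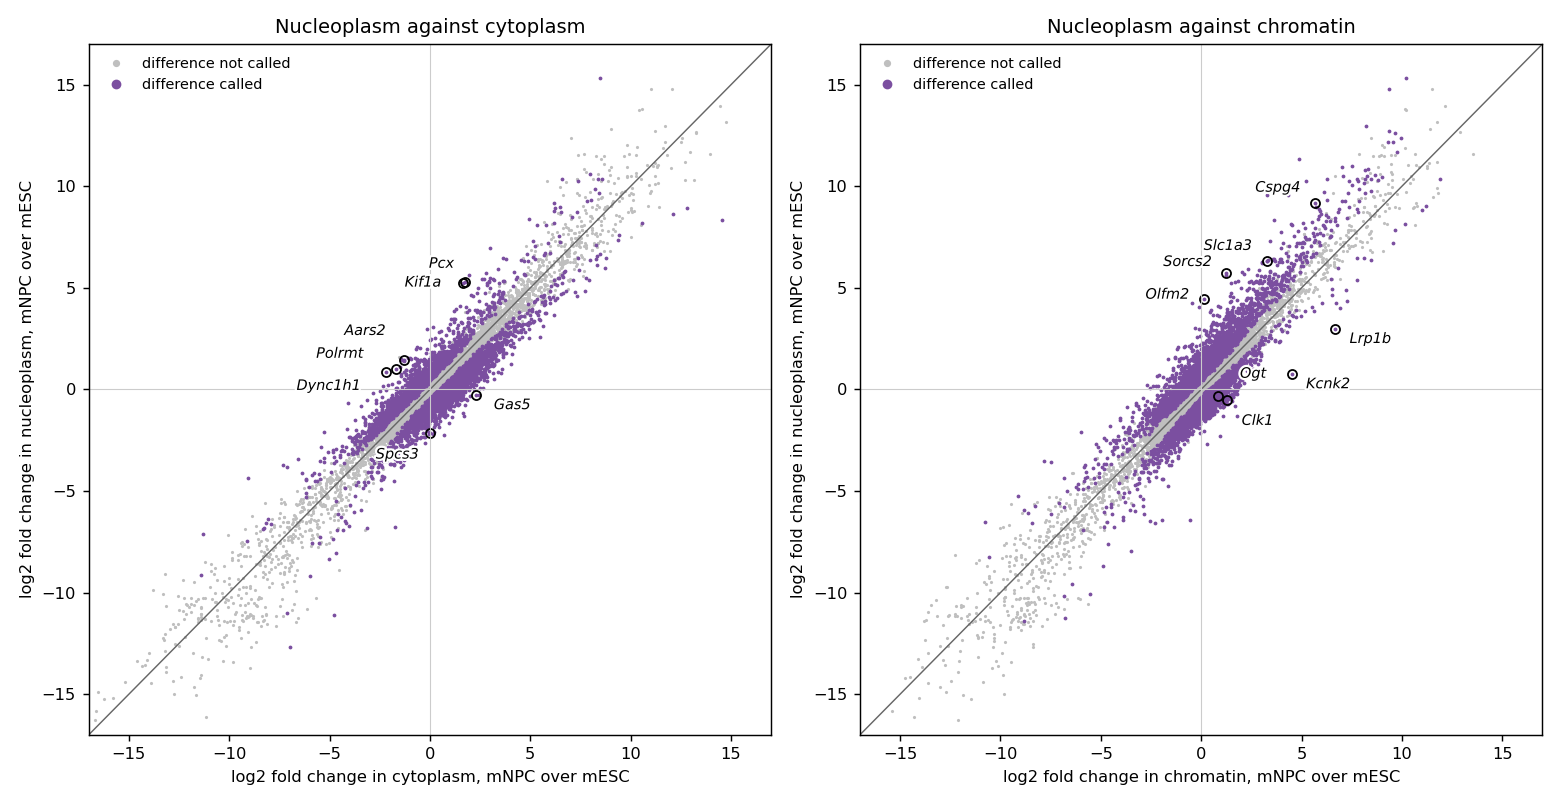
Log2 fold change, mNPC over mESC, in nucleoplasm against that in cytoplasm (left) and on chromatin (right) for the 11206 genes with a mean of at least 10 CPM in 1 nucleoplasm group. Purple genes passed the test of the difference, the diagonal marks equal change, and circled genes are named in the text. Pcx and Kif1a lie above the diagonal on the left, and Lrp1b and Kcnk2 below it on the right.

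The genes that changed also shared features of span, class and position that the comparison did not use. Among protein-coding genes, the longest had the larger share that rose: of 506 genes spanning 300 kb or more, 51.4% rose and 32.8% fell (median 0.64), against 34.3% and 45.6% of 4897 genes of 10 to 30 kb (median -0.24). Genes of 100 kb or more took 17.5% ± 0.725 of counts outside chrM in mNPC and 12.1% ± 0.867 in mESC (SD, n = 3 each; exact two-sided permutation p = 0.1, the smallest possible). Of 15377 protein-coding genes 37.2% rose and 43.0% fell (median -0.14), against 23.4% and 45.3% of 316 intergenic long noncoding RNA genes (median -1.20) and 7.03% and 43.1% of 441 processed pseudogenes (median -1.05), whose counts can be shared with their parent genes. Long noncoding RNA genes of all kinds did not share the low median of the intergenic ones: of 1169, 29.3% rose and 34.8% fell (median -0.07). Of 459 antisense genes, 32.9% rose and 31.8% fell, and the median of 300 processed transcripts was 0.18. The shares by span and class were not tested against each other.

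Chromosomes 8 and 11 stood below the other autosomes. The median log2 fold change of protein-coding genes was -0.54 on chromosome 8 (822 genes, 26.9% higher and 52.3% lower) and -0.68 on chromosome 11 (1249 genes, 24.7% higher and 57.1% lower), against -0.30 to 0.08 on the other 17 autosomes. Both were as low in cytoplasm (-0.56 and -0.68) and on chromatin (-0.62 and -0.79), and on rescaled TPM in nucleoplasm (-0.33 and -0.44). In a comparison chosen after seeing the data, over genes with at least 1 CPM in all 3 cell types, the medians for mNPC over mCtx nucleoplasm were 0.05 on chromosome 8 and 0.16 on chromosome 11, within the range of the other 17 autosomes (-0.30 to 0.28). For mESC over mCtx they were 0.48 and 0.69, above that range (-0.20 to 0.19). Chromosome 8 took 6.70% to 6.83% of protein-coding counts in mNPC libraries and 6.80% to 7.12% in mESC libraries, which overlapped, and 5.06% to 5.21% in mCtx libraries. Chromosome 11 took 7.31% to 7.56% of protein-coding counts in mNPC libraries and 11.7% to 12.5% in mESC libraries, and 6.85% to 7.13% in mCtx libraries. The cause of the difference between chromosomes was not tested.

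**Figure D5:**
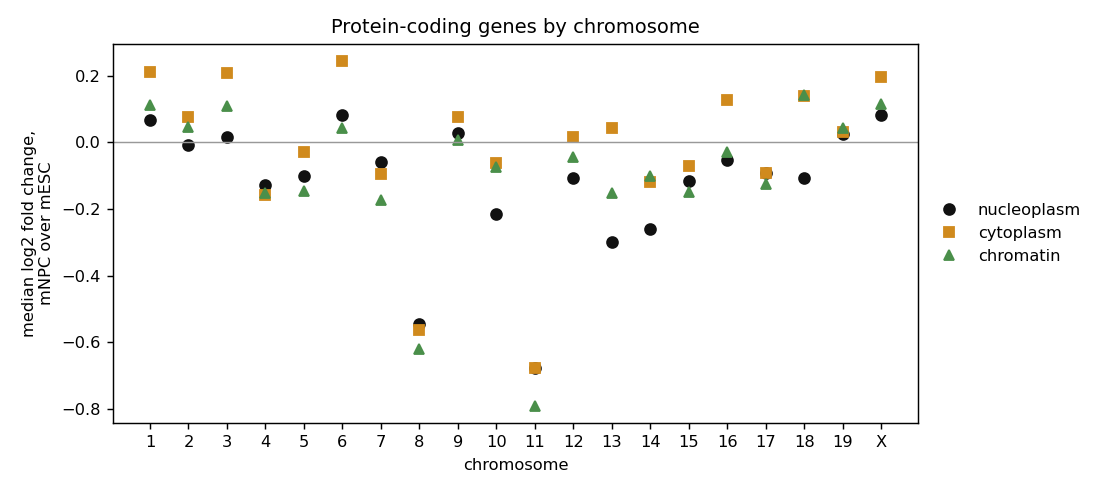
Median log2 fold change, mNPC over mESC, of the tested protein-coding genes of each autosome and of X in nucleoplasm, cytoplasm and chromatin. Chromosomes 8 and 11 lie at -0.54 or below in all 3 fractions, and the others shown between -0.30 and 0.24.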

How the data were processed

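Soluble nucleoplasmic RNA of mNPC and mESC was measured in 3 biological replicates each, per the labels. The authors deposited whole-number read counts for 37332 genes over whole gene spans, introns included. The deposited chromatin columns have the unit expected counts here, and all their values are whole numbers like the rest. The authors also deposited TPM for 53379 genes, and 35509 of them are in the count table. STAR, featureCounts, kallisto and mm10 are named in the submitters' processing notes, without roles or versions. The kit keeps strand, per the labels' protocols. How strand, overlaps and multi-mapped reads were handled is not given in the sources used here, so overlapping, antisense and near-identical genes are uncertain. Symbols and gene classes were matched by gene ID to GENCODE vM21 (35533 of 37332 genes), and promoters from RefSeq.

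Genes of chrM (37) were set apart. All 27 libraries were fitted in edgeR 4.0.16 (R 4.3.3), with 1 coefficient for each of 9 groups, trimmed-mean scaling, the default low-count filter and the quasi-likelihood test, which left 18 residual degrees of freedom. P-values were adjusted by Benjamini-Hochberg over 18252 genes at 0.05. CPM used effective library sizes, and levels are not comparable between genes. Errors are SD over 3 libraries, and SE for log2 fold changes. For a group at 0, the bound used 3 counts per library (0.253 CPM in mNPC, 0.206 in mESC), and for 1 to 3 counts in a group the count ratio has an exact 95% interval. Both cover counting error only. Shares were compared by exact permutation tests (scipy 1.17.1). Figures used matplotlib 3.10.9. The fit was also run on simulated counts in which few genes changed, so that run does not test the scaling where most genes differ.

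The gene lists, members and tests were chosen with earlier results of these data known. Named genes were fixed genes, those with the 3 largest changes in each list or against its direction, the 10 largest changes each way among protein-coding and 5 among noncoding genes, and the 3 largest gains and losses of CPM, all at 10 CPM or more in 1 group. For differences between fractions they were the 4 largest each way. Further list members are given as examples of their group. Not every gene that met the rule is named. Alternatives were DESeq2 1.42.0, 4 other scalings or gene sets for scaling, a fit of the compared groups alone, the test without the filter on low counts, a required log2 change of at least 1, limma 3.58.1 on log2(TPM + 1) of genes at 1 TPM or more, with and without rescaling, with a pseudocount of 0.1 and without the filter, the replicate block, and leaving out each library. Same-numbered mNPC and mESC nucleoplasm libraries did not deviate together (correlation 0.00 to 0.06), so the numbers were not taken to pair them. Same-numbered nucleoplasm and cytoplasm libraries of mESC did (0.32 to 0.66), as did those of nucleoplasm and chromatin (0.34 to 0.57), while those of mNPC ran from -0.01 to 0.16.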

Additional observations from a re-analysis of the deposited data

Results flagged for a closer look

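These genes moved in opposite directions in 2 fractions of the same cell types, with both changes and their difference past the edgeR quasi-likelihood test. Against cytoplasm, the log2 change in nucleoplasm minus that in cytoplasm was 3.05 for Dync1h1 (0.86 and -2.18), 2.74 for Aars2 (1.43 and -1.30), 2.71 for Polrmt (1.02 and -1.69), 2.83 for Rcc1 (1.44 and -1.38) and 2.64 for Snhg3 (1.54 and -1.10). For Gas5 it was -2.54 (-0.26 and 2.28). Rcc1 and Snhg3 overlap on the same strand, so they may be 1 signal, and their sign in nucleoplasm turned on TPM.

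Against chromatin, the log2 change in nucleoplasm minus that on chromatin was -1.80 for Clk1 (-0.50 and 1.30), -1.17 for Ogt (-0.32 and 0.85) and 1.87 for Aars2 (1.43 and -0.44). Groups of 3 libraries were not searched for outlying samples.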

How the results depend on the processing

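In nucleoplasm, 6376 genes were higher and 7740 lower. These counts moved by over 1.5 times on TPM (1801 higher; 1800 with a pseudocount of 0.1; 2159 higher and 12416 lower without a filter) and when a log2 change of at least 1 was required (3746 and 4842). Leaving out 1 library gave 6112 to 6413 higher and 7411 to 7747 lower. Without the filter on low counts 6422 were higher and 8156 lower. For the difference from cytoplasm (1837 higher, 2602 lower), DESeq2 gave 2764 higher, total counts 656 and 5202, TPM 923 higher, rescaled TPM 4029 higher and the required change 165 and 252. Leaving out 1 library gave 1514 to 1935 higher and 1808 to 2785 lower. For the difference from chromatin (3061 and 2434), TPM gave 1548 higher and the required change 470 and 175, and leaving out 1 library 2668 to 3408 and 1917 to 2504. The replicate block was a term for the replicate number in nucleoplasm, and for each cell type and replicate number in the differences between fractions. With the replicate block the called genes were 6454 and 7790 in nucleoplasm, 2591 and 3481 against cytoplasm and 3988 and 3106 against chromatin, and of single genes named the block ended the call of Fgfr2 and changed no other. With each library left out in turn, the chrM share differed by -20.4 to -16.4 percentage points, and genes of 100 kb or more by 4.93 to 5.77. Of protein-coding counts only, the chrM share was 3.80 points higher in mNPC, and of all counts the genes of 100 kb or more were 6.97 points higher.

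Of 3805 values of single genes under alternatives, 3714 kept their direction and their side of the threshold, 58 lost the call, 7 gained it and 26 turned in sign. On TPM as deposited the log2 fold change was -0.092 for Acvr2a, -0.56 for Bmpr1a, -0.21 for Ccnd1, -1.85 for Dnmt3a, -0.73 for Dpf1, -0.61 for Dync1h1, -0.50 for Fgfr1, 1.11 for Fgfr2, -0.83 for Hes1, -1.18 for Lifr, -1.02 for Malat1, -0.081 for Msi1, -0.65 for Polrmt, -0.27 for Ptbp2, -2.66 for Rcc1, -0.30 for Rn7sk, -3.68 for Snhg3, -0.43 for Spry2, -0.54 for Ss18l1, -0.10 for Stat3 and -1.06 for Tcf3. On rescaled TPM it was -0.70 for Dnmt3a, 2.43 for Fgfr2, -1.57 for Rcc1 and -2.56 for Snhg3, and the difference from chromatin was 0.56 for Kcnk2. The cause of these reversals was not tested. With 3 libraries a group, the exact tests of shares cannot give a p under 0.1. Genes at 0 counts are limited by the floor of 3 counts per library. Replicates are called biological in the labels, with no word on separate days.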
